A study of Mus musculus with 6 samples.

Results

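The cytosolic ribosomal protein genes of muscle mesenchymal progenitors were compared between sham and overloaded muscle. The members were the rows of the deposited count table with the biotype protein_coding whose symbols follow the mouse ribosomal protein names (Rpl or Rps with a number, Rplp0 to Rplp2, and Rpsa), and 83 of the 54100 rows met this rule. Of these, 51 belong to the large (60S) subunit and 32 to the small (40S) subunit. Both groups were Pdgfra+ cells, called mesenchymal progenitors or FAPs (fibro-adipogenic progenitors) in the labels, sorted from the plantaris of C57BL/6 mice in lots of 1000 cells per tube. There were 3 sham and 3 overloaded libraries. The labels name no genotype beyond the strain. The age of the mice, the way and duration of the loading, and whether replicates were separate animals or pools, all not given in the sources used here, could not be taken into account. The p-values therefore measure the spread among the libraries alone, and part of it may be technical.

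The cytosolic ribosome is built from ribosomal RNA and a set of ribosomal proteins, most of them present in a single copy. The large subunit joins amino acids and holds the exit tunnel of the new chain, and the small subunit reads the messenger RNA. Most mammalian ribosomal protein messengers begin with a C followed by a run of pyrimidines at their cap (the 5′ terminal oligopyrimidine, or 5′TOP, motif), through which mTOR and the RNA-binding protein Larp1 control their translation and stability. Cells that enlarge or divide need more ribosomes, and ribosome building is a known part of the response of muscle tissue to load.

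Of the 83 members, 63 had a promoter entry in the RefSeq table for mouse build GRCm38.p6, and 26 of those 63 (41.3%) had a C followed by at least 4 pyrimidines (C or T) that began within 5 bases of the annotated start. Over all 27025 genes of that table the share was 18.6%. The windows below show this run for members that the results turn on, each from 10 bases before the start to 18 bases from the start onward, read 5′ to 3′ on the gene's strand, with the pyrimidine run in capitals. The first 6 belong to genes that were higher in overloaded muscle, and the last 3 (Rps6, Rps27 and Rps27l) to genes that did not pass the test.
Rps2: gtcgagatctcgcgCTTCTTggagcact
Rpl15: agaaagCCTTCTTCCTTTCCTCTggcgg
Rpl18: ctcgcaggccgCTCTTTCCCCgcccact
Rpl13a: cctgcgacaagaCCTCCTCCTTTCCCag
Rps26: gcaagccgccggatCCTCTTTCgagtct
Rplp2: cagcgtCTTCCTTTCgccgccggacgcc
Rps6: gaagtcgggCCTCTTTTTCgtgacgcct
Rps27: cgctttcgCTCCTTTCCggcggtgacga
Rps27l: cctccccgccgCCTCTatcccggaagtt
In the order printed, the windows lie at chr17:24720053-24720080 (plus strand), chr14:18270969-18270996 (minus), chr7:45718061-45718088 (plus), chr7:45128728-45128755 (minus), chr10:128626489-128626516 (minus), chr7:141447641-141447668 (plus), chr4:86857350-86857377 (minus), chr3:90213631-90213658 (minus) and chr9:66946076-66946103 (plus), all on GRCm38.p6. The run was 17 bases long at Rpl15 and 14 at Rpl13a, against 5 at Rps27l and 6 at Rps2. A match describes the letters at an annotated start, which may not be the start used in these cells.

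Ribosomal protein transcripts took up a larger share of the counts in overloaded muscle. The 83 genes together held 1.37%, 1.69% and 1.28% of all counts in sham libraries 1, 2 and 3, and 1.99%, 1.92% and 2.23% in the overloaded libraries. Every overloaded library lay above every sham library, with means of 2.05% ± 0.163 (SD, n = 3) against 1.44% ± 0.216 (SD, n = 3), a ratio of 1.42. Library totals ran from 500402 to 754456 counts in sham muscle and from 850857 to 1124210 in overloaded muscle. In bulk samples such as these, a share can move through the number of cells of a type or through the RNA per cell, and the 2 cannot be told apart.

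**Figure D1:**
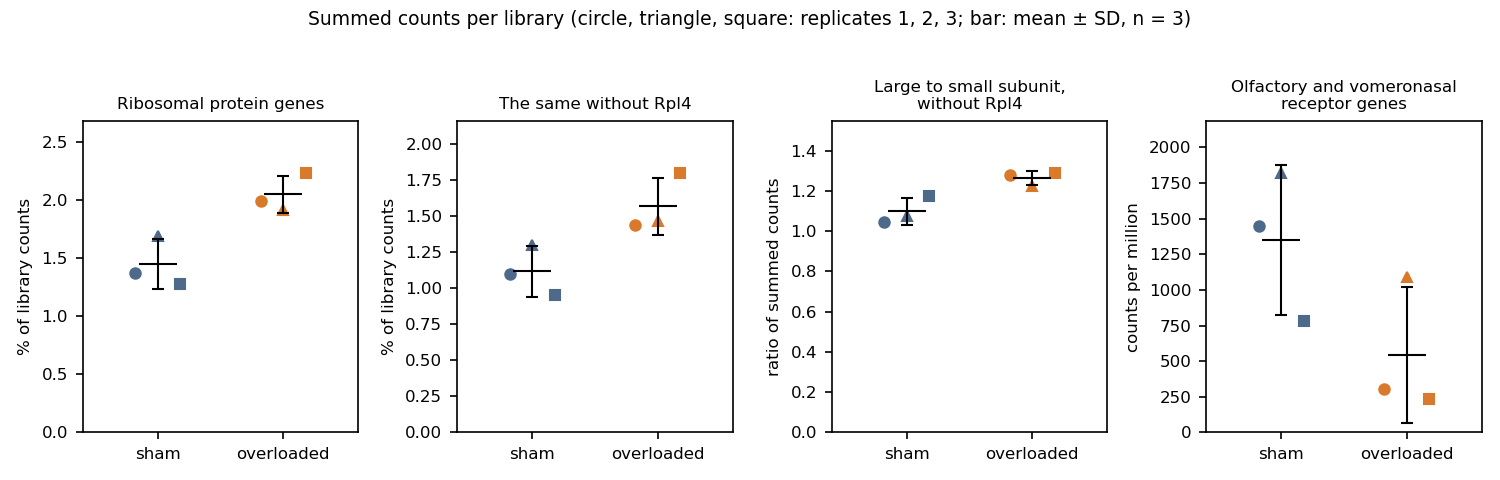
For each library (circle, triangle and square for replicates 1, 2 and 3, bars for mean ± SD), the panels give the share of all counts held by the ribosomal protein genes in percent, the same without Rpl4, the ratio of large to small subunit counts without Rpl4, and the scaled sum of olfactory and vomeronasal receptor counts. The summed share does not overlap between groups, 1.28% to 1.69% in sham and 1.92% to 2.23% in overloaded muscle.

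Gene by gene, 27 of the 77 members that could be tested rose and 0 fell at an adjusted p under 0.05 (edgeR's quasi-likelihood test with Benjamini-Hochberg adjustment over 7207 genes). That is 35.1% of the tested members, against 15% of all 7207 genes called higher and 14.3% called lower. The other 50 members did not pass the test. Fold changes above 0 on the log2 scale were seen in 61 of the 77, with a median of 0.47 on the log2 scale, and the median over all tested genes was -0.025. In 34 members all 3 overloaded libraries lay above all 3 sham libraries (21.2% of all genes did so), and in 1 member, Rps27, all 3 lay below (20.3% of all genes).

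These counts moved with which libraries and covariates entered the fit. Reads on the 1992 olfactory and vomeronasal receptor genes, which belong to sensory neurons, summed to 1445, 1819 and 781 CPM (counts scaled to a common size, here by the library total) in the sham libraries and 308, 1092 and 232 CPM in the overloaded ones. With the log2 share of those reads as a covariate, 9 members were called higher and 0 lower, when 6.77% of all genes were called higher, and the median member log2 fold change was 0.47. Without sham library 3, 15 members were called higher and 2 lower (Rpl10 and Rps28), with 11.2% of all genes called higher. Without overloaded library 3, 18 were called higher, with 11.3% of all genes called higher. 6 genes kept their call in all 16 alternative settings: Rps2, Rpl5, Rpl15, Rpl18, Rplp1 and Rpl13a. The other 21 lost it in at least 1.

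Markers of the labelled cell type were present, and all 13 FAP markers (Pdgfra, collagen genes and others) had counts, summing to 69514 to 89754 CPM in sham and 97818 to 112173 CPM in overloaded libraries, with 4 of the 13 called higher and 6 called lower by edgeR. Summed endothelial markers (8 genes, all with counts) ran from 122 to 228 CPM in sham and from 33.5 to 90.3 CPM in overloaded muscle. Of these, 2 were tested and 1 was called lower. Summed pericyte and smooth muscle markers (8 genes, all with counts) ran from 112 to 186 and from 358 to 543 CPM, with 3 tested and 1 called higher. The 5 tenocyte markers, all with counts, summed to 110 to 143 and 3365 to 4310 CPM, with only 2 tested and 1 called higher. Leukocyte markers were low (15.8 to 27.0 CPM in sham, 1.92 to 20.1 CPM in overloaded muscle), with 7 of 12 having a count and Adgre1, C1qa, C1qb, Lyz2 and S100a9 at 0. Satellite cell markers (6 of 7 with a count, Myod1 at 0) summed to 81.6 to 89.2 and 110 to 153 CPM, with 2 tested and 1 called higher. Myofibre markers (all 8 with counts) summed to 38.7 to 68.4 and 23.1 to 32.4 CPM, with 1 tested and 0 called. The part of these cell types in the ribosomal protein counts was not tested.

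Genes of both subunits rose. Among large subunit genes, 19 of 46 tested members were called higher (41.3%, against 15% of all genes), with a median log2 fold change of 0.58. Among small subunit genes, 8 of 31 were called higher (25.8%), with a median of 0.44. Whether the subunits differ was not tested, and both medians stand above that of all genes. Without the paralogue genes the numbers were 18 of 44 and 8 of 30.

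The ratio of large to small subunit counts was 1.55, 1.69 and 1.92 in sham and 2.16, 1.91 and 1.84 in overloaded libraries, and the groups overlapped. A single gene, Rpl4, whose protein reaches into the exit tunnel, held between 19.5% and 27.9% of all member counts. Its locus holds 5 small nucleolar RNA genes, and the reads behind its counts could not be examined. With Rpl4 left out, a choice made after the values were seen, the ratio was 1.05, 1.08 and 1.17 in sham and 1.28, 1.22 and 1.29 in overloaded libraries, with no overlap. Rpl5, a further large subunit gene that stayed in this ratio, went from 725, 608 and 772 CPM to 1602, 1376 and 2244 CPM. The ratio without both genes was not computed, and whether the shift extends across the large subunit was not tested. The summed share without Rpl4 was 1.10%, 1.30% and 0.952% against 1.44%, 1.46% and 1.79%.

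**Figure D2:**
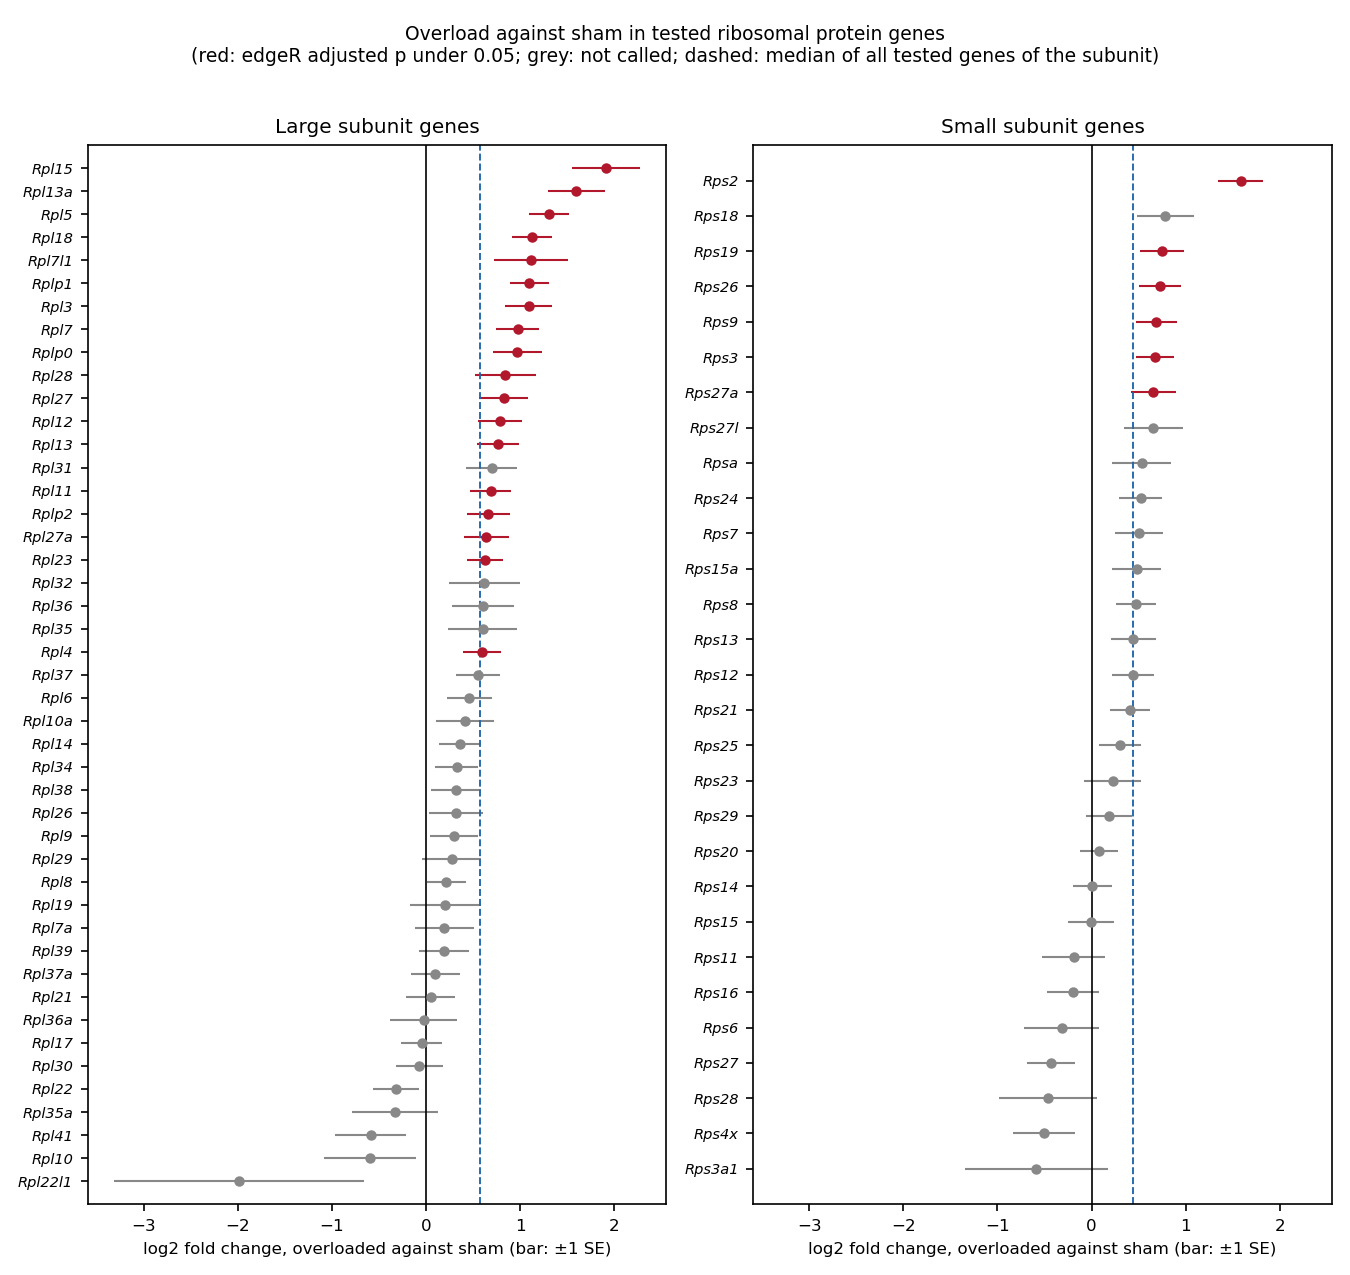
Log2 fold change (overloaded over sham, with its standard error) of 74 of the 77 tested ribosomal protein genes, grouped by subunit, with genes called by edgeR in red and the median of all tested genes of the subunit dashed. Called genes lie only on the side of higher expression in overloaded muscle, 18 of those drawn in the large and 6 in the small subunit.

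The stalk of the large subunit, a flexible arm of the scaffold Rplp0 and the acidic proteins Rplp1 and Rplp2, recruits the GTPases that drive initiation and elongation. All 3 stalk genes rose. Rplp1 stood at 424, 319 and 273 CPM in sham libraries 1 to 3 and at 627, 747 and 803 CPM in the overloaded libraries, a log2 change of 1.10 ± 0.21 (SE, adjusted p = 0.000163 in edgeR). Rplp0 had 105, 41.5 and 72.7 CPM in sham and 152, 142 and 143 CPM in overloaded muscle (log2 change 0.97 ± 0.26 SE, adjusted p = 0.0053 in edgeR). Rplp2 had 127, 203 and 113 CPM against 224, 241 and 229 CPM (log2 change 0.66 ± 0.23 SE, adjusted p = 0.0291 in edgeR). No sham library of any stalk gene reached the lowest overloaded library. The call for Rplp1 held in every setting tried. That for Rplp0 was lost without sham library 2 (log2 fold change 0.73), the library with its lowest value. That for Rplp2 was lost without sham library 1 (0.61), sham library 3 (0.52), overloaded library 2 (0.65) or overloaded library 3 (0.69). Rplp0 and Rplp2 also lost it with the olfactory read covariate, at 0.88 and 0.91.

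Rpl5 and Rpl11 bind 5S ribosomal RNA, enter the large subunit together as the 5S particle, and outside the ribosome can bind Mdm2, the ubiquitin ligase of p53. Both rose. Rpl5 stood at 725, 608 and 772 CPM in sham and 1602, 1376 and 2244 CPM in overloaded libraries, a log2 change of 1.31 ± 0.21 (SE, adjusted p = 1.6e-05 in edgeR). Rpl11 stood at 166, 195 and 133 CPM against 252, 240 and 300 CPM, a log2 change of 0.69 ± 0.22 (SE, adjusted p = 0.0169 in edgeR). Both genes had every overloaded library above every sham library. The Rpl11 call was lost without sham library 3 (0.57), without overloaded library 3 (0.61) and with the olfactory read covariate (0.67). Exons of Rpl5 (chr5:107900502-107909005, plus strand) overlap those of Fam69a, and reads of the overlap cannot be assigned without a stated strand setting. The end of the Rpl5 transcript held 0.0% unique sequence, and Fam69a was the only gene that shared it. The cited library protocol tags transcripts near this end, and the part of Fam69a in the Rpl5 counts was not tested.

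**Figure D3:**
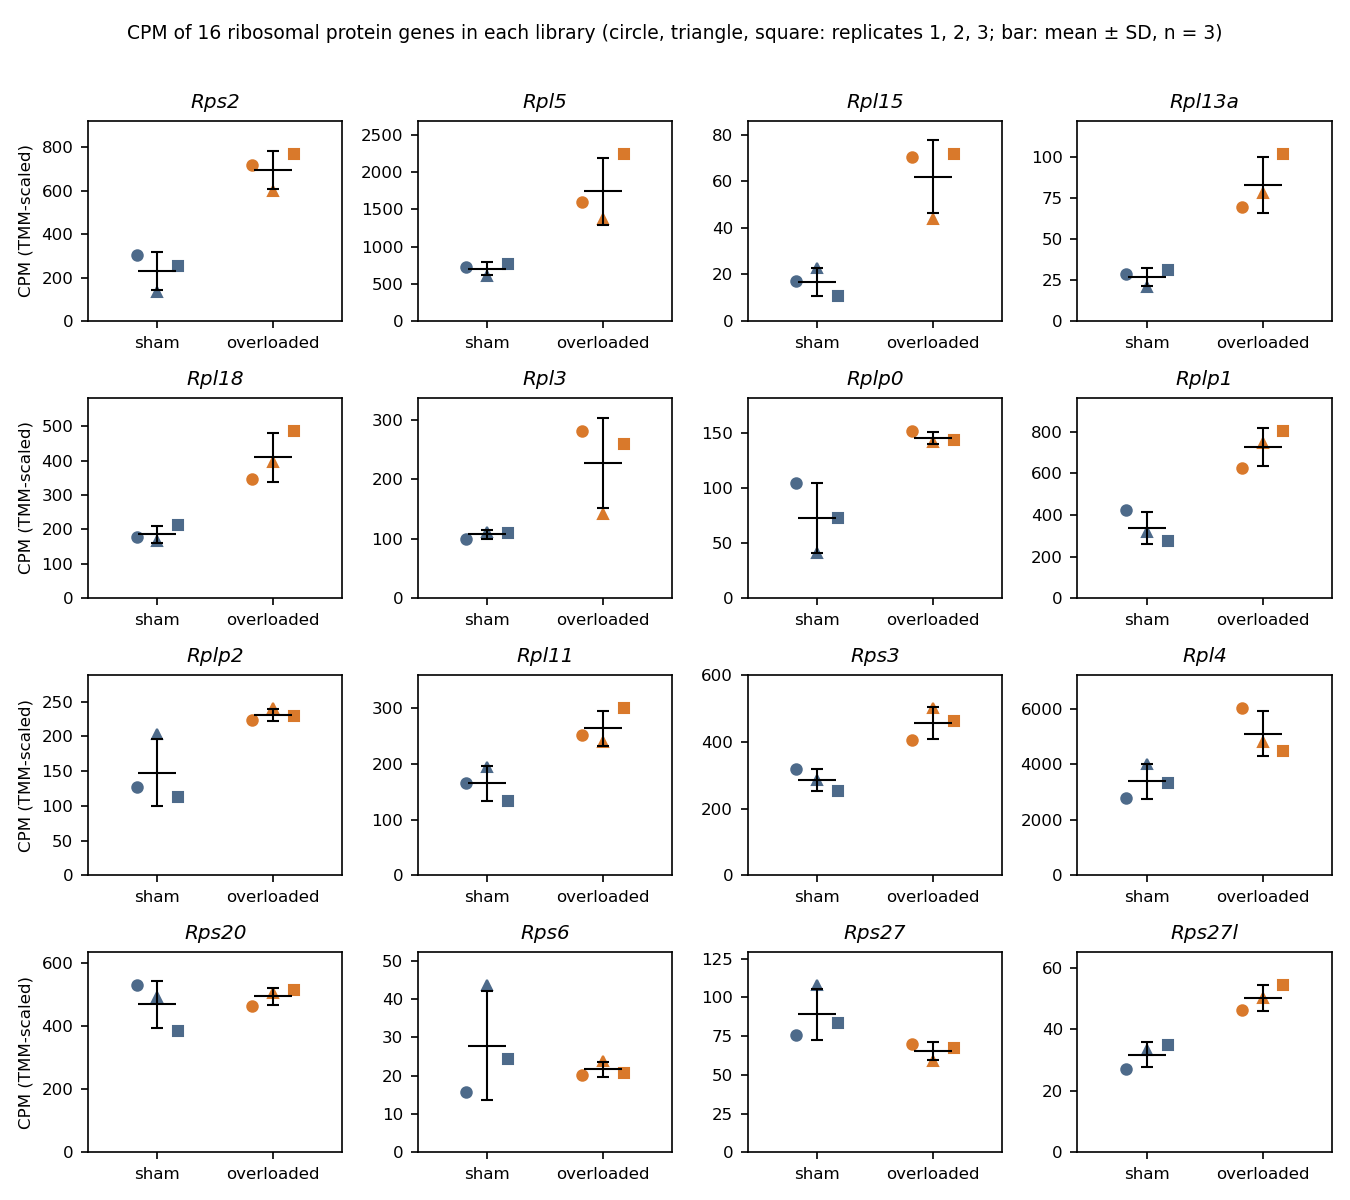
CPM of 16 members in each library, on linear axes from 0 (circle, triangle and square for replicates 1, 2 and 3, bars for mean ± SD, n = 3): 12 called members in the upper rows, and Rps20, Rps6, Rps27 and Rps27l, which did not pass the test, in the lowest row. For Rps2, Rpl5 and the 3 stalk genes the overloaded points lie above all sham points.

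Among the large subunit genes that passed the test, Rpl15 had the largest change. Its protein is a core element of the subunit and is mutated in some cases of Diamond-Blackfan anaemia. Rpl15 (chr14:18267823-18271391, minus strand) had 17.2, 22.8 and 10.8 CPM in sham and 70.2, 43.9 and 71.7 CPM in overloaded libraries, a log2 change of 1.92 ± 0.36 (SE, adjusted p = 0.000147 in edgeR). Rpl13a (chr7:45125558-45128761, minus strand), which can also act outside the ribosome in an interferon-induced translation inhibitor complex, had 28.6, 20.7 and 30.9 CPM against 69.3, 77.7 and 102 CPM, a log2 change of 1.60 ± 0.30 (SE, adjusted p = 0.000166 in edgeR). Rpl18 had 179, 166 and 214 CPM against 347, 395 and 486 CPM, a log2 change of 1.13 ± 0.21 (SE, adjusted p = 0.000148 in edgeR). In these 3 genes the groups did not overlap, and the calls held in every setting tried. Exons of Rpl15 overlap Nkiras1, those of Rpl18 overlap Sphk2, and those of Rpl13a overlap Gm45713, Mir5121 and Snord33. The end of the Rpl15 transcript shares sequence with 19 pseudogenes and that of Rpl18 with 5, while that of Rpl13a shares none.

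Rpl3, whose protein reaches toward the peptidyl transferase centre, had 98.8, 112 and 110 CPM in sham and 281, 142 and 259 CPM in overloaded libraries, a log2 change of 1.09 ± 0.25 (SE, adjusted p = 0.00104 in edgeR). Overloaded library 2 lay nearest to the sham values. Rpl7 had 256, 145 and 198 CPM against 360, 331 and 495 CPM, a log2 change of 0.97 ± 0.23 (SE, adjusted p = 0.00151 in edgeR). Both calls were lost with the olfactory read covariate, at 0.48 for Rpl3 and 0.66 for Rpl7, while no left-out library removed either. Outside the naming rule, large subunit genes that rose included Rpl13 (0.77), Rpl12 (0.79), Rpl23 (0.63), Rpl27 (0.83), Rpl4 (0.60), Rpl27a (0.64) and Rpl28 (0.85), each a log2 fold change. Rpl4 stood at 2789, 4021 and 3319 CPM in sham and at 6016, 4809 and 4482 CPM in overloaded libraries, without overlap (SE 0.20, edgeR adjusted p = 0.0226). Its call was lost without sham library 1, sham library 3 or overloaded library 1 and with the olfactory read covariate, and its log2 fold change ran from 0.49 to 0.75 over the 16 alternatives. Rpl12 lost its call without overloaded library 2, with values from 0.61 to 1.04 over the alternatives. Rpl27 lost its call after thinning, with the olfactory read covariate, and without sham library 3 or overloaded library 3. The calls of Rpl13 and Rpl23 were lost with the olfactory read covariate. The calls of Rpl27a and Rpl28, with edgeR adjusted p of 0.0417 and 0.0475, were lost in 10 and 11 of the 16 alternative settings.

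In the small subunit Rps2 changed most. Its protein sits near the entry of the messenger RNA channel. Rps2 (chr17:24718116-24721929, plus strand) had 304, 133 and 254 CPM in sham and 720, 599 and 770 CPM in overloaded libraries, a log2 change of 1.58 ± 0.24 (SE, adjusted p = 9.43e-06 in edgeR). The lowest overloaded library (599 CPM) was well above the highest sham library (304 CPM). Rps2 exons overlap Snhg9 and Snora64, and 51 other genes share sequence with the end of its transcript.

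Rps19, the gene most often mutated in Diamond-Blackfan anaemia, also rose. It had 200, 164 and 124 CPM in sham and 220, 232 and 368 CPM in overloaded libraries, a log2 change of 0.75 ± 0.24 (SE, adjusted p = 0.0165 in edgeR). The highest sham and the lowest overloaded library lay close together. The Rps19 call was lost without overloaded library 3 (0.50) or sham library 3 (0.60) and with the olfactory read covariate (0.59).

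Rps3 and Rps9 line the messenger entry channel, and Rps26 lies near its exit. Rps3 had 319, 286 and 252 CPM in sham and 406, 502 and 464 CPM in overloaded libraries, a log2 change of 0.68 ± 0.20 (SE, adjusted p = 0.0114 in edgeR). Rps9 had 147, 151 and 139 CPM against 222, 199 and 283 CPM, a log2 change of 0.69 ± 0.22 (SE, adjusted p = 0.0167 in edgeR). Rps26 had 218, 305 and 196 CPM against 299, 463 and 427 CPM, a log2 change of 0.73 ± 0.22 (SE, adjusted p = 0.0125 in edgeR). Rps26 was the single called member whose groups overlapped, with sham library 2 just above overloaded library 1. Without sham library 3 the calls of Rps3 (0.61), Rps9 (0.67) and Rps26 (0.62) were lost, and Rps9 also lost its call without overloaded library 3 (0.56) and with the olfactory read covariate (0.47). Outside the naming rule, Rps27a (log2 fold change 0.66), which is made as a fusion to ubiquitin, rose too. The Rps27a call was lost with library size as the only scaling, with the olfactory read covariate, and without sham library 2 or overloaded library 3.

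At the edge of the threshold, Rpl28 (edgeR adjusted p = 0.0475) was inside and Rps18 (0.0504) and Rpl31 (0.0558) were outside. Rps18 had 40.1, 58.1 and 44.4 CPM in sham and 62.5, 58.9 and 121 CPM in overloaded libraries. The 3 members of highest mean CPM that did not pass the test were Rps20, Rps25 and Rps12. Rps20 had 528, 492 and 383 CPM against 464, 504 and 512 CPM, a log2 change of 0.08 ± 0.20 (SE, adjusted p = 0.817 in edgeR). Rps25, a protein needed for some internal ribosome entry sites, had 410, 622 and 328 CPM against 463, 542 and 666 CPM. Rps12 had 308, 514 and 335 CPM against 541, 387 and 630 CPM. The groups overlapped for these 3 genes. Rps12 was called higher without sham library 2 (0.70) or overloaded library 2 (0.63), while Rps20 was at -0.029 without sham library 3.

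Rps6, the small subunit protein phosphorylated by S6 kinase downstream of mTOR, did not pass the test. It had 15.8, 43.6 and 24.2 CPM in sham and 20.2, 23.8 and 20.8 CPM in overloaded libraries, a log2 change of -0.32 ± 0.40 (SE, adjusted p = 0.598 in edgeR). The overloaded values lay within the sham range. Without sham library 2 the change was 0.11. The 4 members on the X chromosome (Rpl10, Rpl36a, Rpl39 and Rps4x) included 0 called genes, where 29.3% of all tested genes were called in either direction. Rpl10, one of the last proteins to join the large subunit, had 210, 512 and 139 CPM in sham and 239, 157 and 164 CPM in overloaded libraries.

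Sham library 2 held the highest of the 6 CPM values for 18 of the 77 tested members. This share of 23.4% was near that over all tested genes, 18.3%. Among them were Rps3a1, with 122, 448 and 82.1 CPM in sham and 147, 100 and 175 CPM in overloaded libraries, and Rps28, with 231, 473 and 110 CPM against 190, 241 and 150 CPM. Rpl22, which binds RNA and has a role in lymphocyte development, had 248, 568 and 291 CPM against 273, 277 and 330 CPM. Rpl35a had 48.7, 164 and 41.7 CPM against 58.7, 77.7 and 57.8 CPM. In each of these 4 genes sham library 2 stood above the other 5 libraries. Overloaded library 3 was the highest library for 32 members (41.6%, against 20.4% of all tested genes). Sham library 3 was the lowest for 45 members, and the share of all genes was not counted for the lowest library. Sham library 2 also had the smallest total and the highest olfactory receptor sum, and the part of either in this pattern was not tested. Without it, 73 of 77 members had a log2 fold change above 0, the median was 0.60, and 26 members were called higher, 22 of them among the 27, with 11.9% of all genes called higher.

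**Figure D4:**
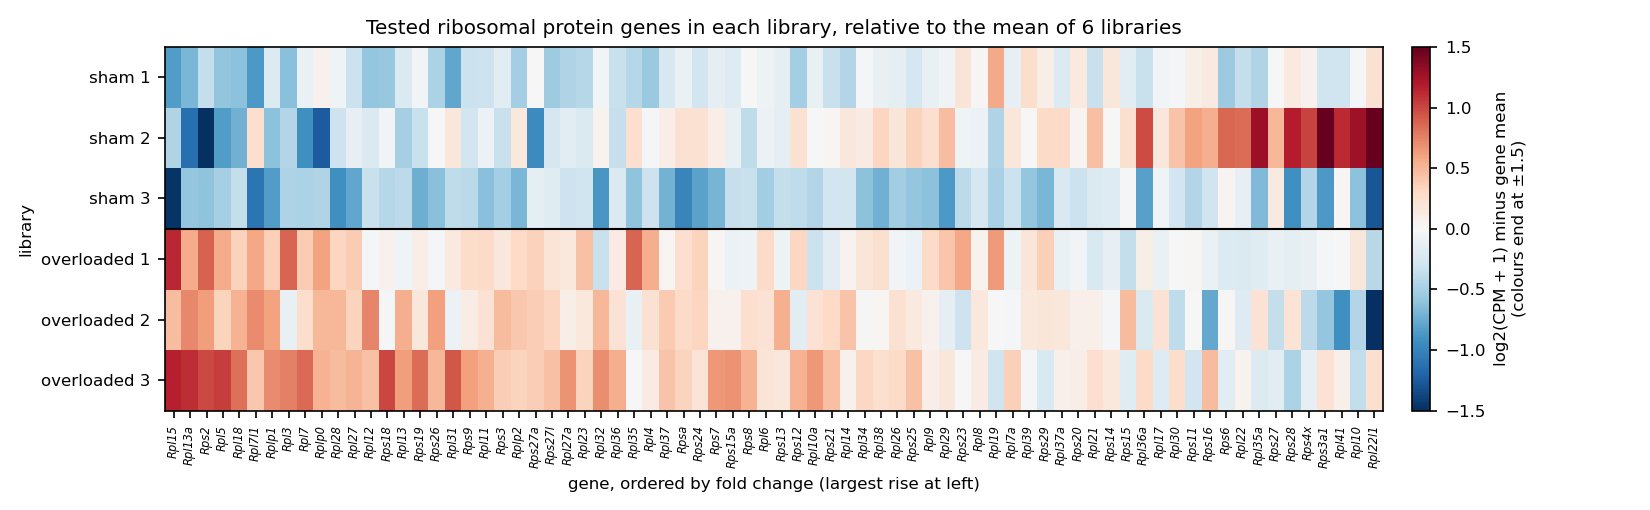
Log2(CPM + 1) of 74 of the 77 tested members (columns, ordered by fold change) in each library (rows), as the difference from the gene's mean over the 6 libraries. Over all 77, sham library 3 is the lowest library for 45 members. Overloaded library 3 is the highest for 32 (41.6%, against 20.4% of all tested genes) and sham library 2 for 18 (23.4%, against 18.3%).

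6 members had too few counts to be tested. Rpl3l, a paralogue of Rpl3 known from heart and skeletal muscle fibres, and Rpl10l, known from testis, had 0 counts in every library, which allows up to 1.56 CPM over the sham group and 1.11 CPM over the overloaded group (3 counts per group, counting error only). Rpl39l had 1 count in sham and 8 in overloaded muscle, a ratio of 5.70 with an exact 95% counting interval of 0.764 to 253. Rpl24 had 8.59, 12.4 and 9.42 CPM in sham and 1.92, 5.02 and 3.47 CPM in overloaded libraries, lower in all 3 but without a test. Rpl23a had 7.16, 8.30 and 4.04 CPM against 3.85, 7.52 and 2.31 CPM, and Rps10 had 7.16, 6.22 and 9.42 CPM against 6.73, 3.76 and 3.47 CPM. The end of the transcript held only 18.7% unique sequence in Rpl24, 12.7% in Rpl23a and 13.5% in Rps10. Exons of Rpl24 overlap Gm28037, those of Rpl23a overlap Snord42b and Tlcd1, and those of Rps10 overlap Gm15420 and RPS10-NUDT3. Whether the low counts of Rpl24, Rpl23a and Rps10 reflect low expression or reads that could not be assigned was not tested.

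Some ribosomal proteins have a second gene that encodes a close relative, and the balance within such pairs was compared as the paralogue's percentage of the pair's counts. Of 8 pairs, 4 had at least 10 paralogue counts and were tested by a two-sided exact permutation test on the log2 ratio, whose smallest possible p with 3 against 3 libraries is 0.1. Rps27l, a p53-inducible relative of Rps27, made up 26.4%, 23.5% and 29.5% of the pair in sham and 39.7%, 46.0% and 44.8% in overloaded libraries. The ranges did not overlap, the difference in log2 ratio was 1.08, and the exact p was 0.1 (adjusted over the 4 pairs, 0.2), so the design could not reach 0.05. Within the pair, Rps27 went from 75.9, 108 and 83.4 CPM to 70.2, 58.9 and 67.1 CPM (log2 fold change -0.43, edgeR adjusted p = 0.216), and Rps27l from 27.2, 33.2 and 35.0 CPM to 46.2, 50.2 and 54.4 CPM (0.66, edgeR adjusted p = 0.116). Neither gene passed the test on its own.

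Rps4l, which the file lists as a transcribed processed pseudogene and which is therefore no member, held 32.7%, 14.5% and 21.2% of the counts of Rps4l and Rps4x in sham and 37.0%, 35.6% and 38.7% in overloaded libraries, a difference in log2 ratio of 1.03 (exact permutation p = 0.1, adjusted 0.2). The lowest overloaded library exceeded the highest sham library. Rpl22l1, which is known to rise when Rpl22 is lost, held 6.49%, 17.0% and 1.82% of its pair in sham and 3.73%, 1.34% and 5.0% in overloaded libraries, with overlap (difference -1.05, exact permutation p = 0.4, adjusted 0.533). The Rpl22l1 level itself was 17.2, 116 and 5.38 CPM in sham and 10.6, 3.76 and 17.4 CPM in overloaded libraries, again with sham library 2 far above the rest. Rpl7l1, a nucleolar relative of Rpl7, rose (12.9, 29.0 and 10.8 CPM to 36.6, 40.1 and 32.4 CPM, log2 change 1.12 ± 0.40 SE, adjusted p = 0.0321 in edgeR). Its share of the pair with Rpl7 did not move beyond the spread (difference 0.14, exact permutation p = 0.8, adjusted 0.8). The Rpl7l1 call was lost without sham library 1 (0.99), sham library 3 (0.87), overloaded library 1 (1.14) or overloaded library 2 (1.07). It was also lost with the olfactory read covariate (1.51), by DESeq2 (1.11) and after thinning (1.06). The pairs of Rpl3l, Rpl10l, Rpl36al (8 counts) and Rpl39l (9 counts) held too few counts for a test.

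**Figure D5:**
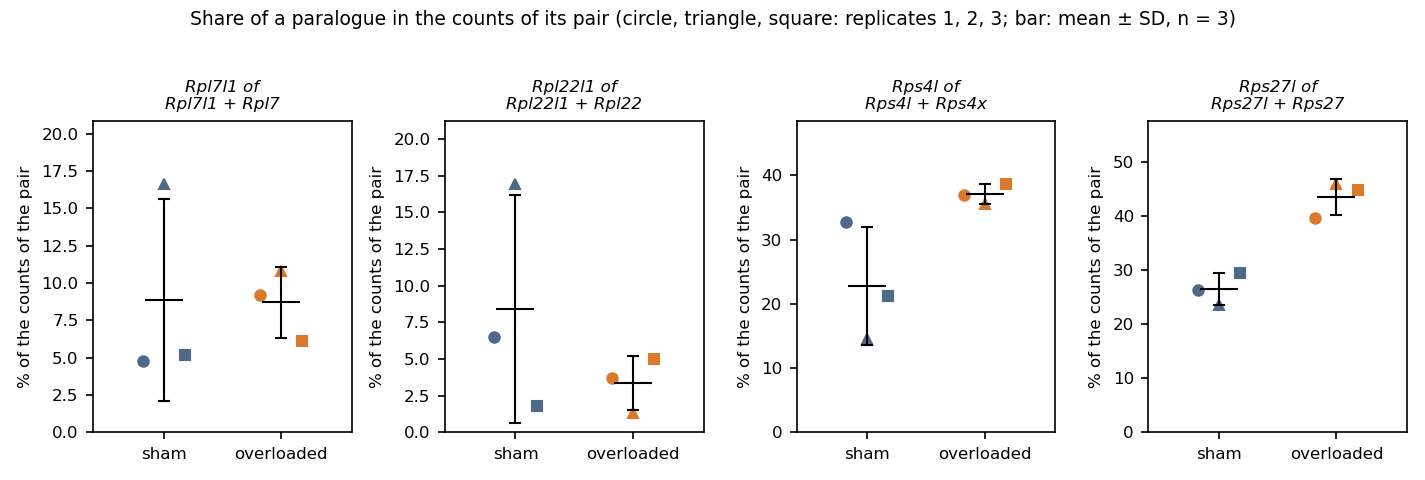
Paralogue share of each tested pair's counts, in percent, by library (bars for mean ± SD, n = 3). For Rps27l and Rps4l every overloaded library lies above every sham library, while for Rpl22l1 and Rpl7l1 the groups overlap.

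Ribosomal protein genes have many processed pseudogenes, and reads can be placed on either. Of the 83 members, 65 shared at least 1 stretch of 50 bases in the last 300 bases of their transcript with another annotated gene, and Rpl7a and Rpl21 each shared sequence with 66 pseudogenes. The counts of such genes are uncertain, and how reads with several map positions were handled, not given in the sources used here, bears on them. Of the 18 members that shared no such stretch, 15 were tested and 10 were called higher (66.7%, against 15% of all genes). Their median log2 fold change was 0.64. The 18 also had a higher median level, 178 CPM, against 82.9 CPM for the members with under 50% unique sequence in that window. Higher counts make a call easier, and the part of level in the 66.7% was not tested. Rpl13a, Rplp0, Rpl11, Rps3 and Rpl4 are among these 10. Exons of Rpl13a, Rps3 and Rpl4 overlap other annotated genes, so reads of those overlaps remain uncertain, while exons of Rplp0 and Rpl11 overlap none. The 310 rows with a pseudogene symbol (Rpl, Rps or Rplp with -ps) held 3.28% to 4.13% as many counts as the members in sham libraries. In overloaded libraries they held 2.86% to 2.98%. Pseudogenes under other symbols, among them some that share sequence with members, were not in this sum, so it is no total for pseudogene reads. Members with at least 50% unique sequence in that window had 12 of 29 called higher (41.4%), and the rest had 15 of 48 (31.25%).

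The pyrimidine start printed above was set beside the changes, without a test. Of the 25 tested members with it, 10 were called higher (40%, against 15% of all genes) with a median log2 fold change of 0.64. Of the 33 tested members in the promoter table without it, 10 were called higher (30.3%) with a median of 0.44. In the 250 bases before the start, 85.7% of the 63 members had CTTCC or GGAAG, the core letters of ETS-type sites on either strand, against 66.9% of all genes in the table. TATAAA, searched on both strands, was in 6.35% of members and 14.3% of all genes, and CACGTG, the E-box letters that Myc can bind, was in 7.94% and 6.86%.

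The genes that build, load and control ribosomes were described from lists. Rack1, a scaffold on the head of the small subunit that lies outside the naming rule of the members, rose with them, from 312, 456 and 331 CPM to 684, 653 and 711 CPM (log2 change 0.90 ± 0.20 SE, adjusted p = 0.00103 in edgeR). Fau, whose protein is cut to release a small subunit protein, was at -0.046 and did not pass. Of 18 tested ribosomal protein chaperones and late assembly factors, 5 rose and 0 fell, with a median log2 fold change of 0.68. That is 27.8% called higher, against 15% of all genes called higher and 14.3% called lower. Eif6, which keeps immature large subunits from joining small ones, went from 41.5, 39.4 and 49.8 CPM to 146, 173 and 150 CPM (log2 change 1.83 ± 0.25 SE, adjusted p = 1.73e-06 in edgeR). Ltv1 (1.68) and Pno1 (1.28), assembly factors of the small subunit, and Heatr3 (1.02), which serves the nuclear import of Rpl5, also rose, and Gnl3 (0.57) was the fifth. The Heatr3 call was lost without sham library 1 (1.01), sham library 3 (0.94), overloaded library 2 (1.07) or overloaded library 3 (0.93). It was also lost by DESeq2 (1.02), with library size as the only scaling (0.95), with no filter (1.10) and with the replicate number as a block (1.02). Of 10 tested genes for RNA polymerase I, the 5S particle and large subunit assembly, 5 rose (50%, against 15% of all genes) and 0 fell. Their median was 0.94, and the 5 were Pes1 (1.81), Rrs1 (1.36), Bop1 (1.35), Polr1c (1.18) and Polr1a (1.19). With the olfactory read covariate, 2 of the 18 and 2 of the 10 were called higher, when 6.77% of all genes were. Polr1c (0.33), Pes1 (1.19), Ltv1 (1.23) and Heatr3 (0.99) were among the calls lost in that fit.

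Other messengers with a 5′TOP start moved in part with the members. Of 19 tested translation factors and other genes of this kind, 8 rose (42.1%, against 15% of all genes) and 1 fell (14.3% of all genes did). Their median log2 fold change was 0.50. With the olfactory read covariate 3 rose and 0 fell, when 6.77% of all genes were called higher. Npm1, a nucleolar chaperone, went from 288, 351 and 291 CPM to 845, 573 and 909 CPM (1.33, edgeR adjusted p = 1.56e-05). Vim, the intermediate filament of mesenchymal cells, went from 1937, 1541 and 1469 CPM to 4221, 4726 and 5322 CPM (1.53, edgeR adjusted p = 6.48e-07). The elongation factor subunit Eef1b2 (0.94) and the poly(A)-binding protein Pabpc1 (0.86) rose. The helicase Eif4a2 (-0.85, edgeR adjusted p = 0.0431) fell, with overlapping groups. Its call was lost without sham library 1, sham library 2, overloaded library 2 or overloaded library 3, by DESeq2, with no filter and with the olfactory read covariate. Noncoding 5′TOP hosts of small nucleolar RNAs showed 1 rise and 1 fall among 9 tested, Snhg6 (1.05) and Snhg8 (-0.95), with a median of -0.12. The 11.1% called higher compares with 15% of all genes called higher and 14.3% called lower. The Snhg6 call was lost without sham library 2 (1.15), sham library 3 (0.73) or any 1 of the overloaded libraries (1.15, 1.06 and 1.01), and the Snhg8 call without sham library 1 (-0.49), overloaded library 1 (-0.83) or overloaded library 3 (-0.90). Both were also lost by DESeq2, after thinning, with no filter and with the olfactory read covariate (1.26 for Snhg6 and -0.66 for Snhg8).

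Among 21 tested genes of mTOR, Larp1 and Myc control, 3 rose (14.3%, against 15% of all genes) and 1 fell, with a median log2 fold change of 0.15. Eif4ebp1, the translation repressor that mTOR phosphorylates, went from 12.9, 10.4 and 8.07 CPM to 35.6, 47.7 and 50.9 CPM (log2 change 2.08 ± 0.40 SE, adjusted p = 0.000166 in edgeR). Larp1 rose by 0.98 and Larp4b by 0.71, and Myc, a driver of ribosomal gene transcription, fell from 414, 272 and 300 CPM to 180, 150 and 244 CPM (log2 change -0.78 ± 0.23 SE, adjusted p = 0.00869 in edgeR). The Myc call was lost without sham library 1 (-0.54) or overloaded library 2 (-0.62). The Larp1 call was lost without sham library 1 (0.86), sham library 3 (1.02) or overloaded library 3 (0.84), and the Larp4b call without sham library 1 (0.52), sham library 2 (0.63), overloaded library 2 (0.69) or overloaded library 3 (0.69). Larp1 also lost its call with no filter (1.06), and Larp4b with library size as the only scaling (0.64). Both were lost by DESeq2, after thinning and with the olfactory read covariate, at 0.79 for Larp1 and 0.54 for Larp4b, and 1 of the 21 rose and 1 fell in that fit.

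Of 11 tested genes of p53 surveillance, which can respond to free Rpl5 and Rpl11, 1 rose and 1 fell (9.09% each way, against 15% of all genes called higher and 14.3% lower), with a median log2 fold change of -0.27. Cdkn1a, the cell cycle inhibitor p21, fell from 1482, 1449.7 and 1524 CPM to 660, 702 and 634 CPM (log2 change -1.16 ± 0.19 SE, adjusted p = 2.66e-05 in edgeR). Sesn2, a stress-induced inhibitor of mTOR signalling, rose by 1.11 with overlapping groups. The Sesn2 call was lost without sham library 1 (0.99), sham library 3 (1.16), overloaded library 1 (0.91) or overloaded library 3 (1.04), by DESeq2 and after thinning. It was also lost with the olfactory read covariate, at 0.43, and 0 of the 11 rose and 1 fell in that fit. Trp53 (0.39) and Mdm2 (0.13) did not pass the test.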

How the data were processed

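RNA was measured in 6 libraries of sorted cells, 3 sham and 3 overloaded. The authors deposited raw read counts per gene, and Trim Galore 0.6.6, HISAT2 2.2.1, featureCounts 2.0.1, DESeq2 1.28.1 and the GRCm38 build are named per the submitters' processing notes. The library protocol cited in the labels tags transcripts near their 3′ end. Unknown here are the annotation release, the strand setting, the handling of multi-mapping reads and whether molecular identifiers were collapsed. Counts were tested with edgeR 4.0.16 (quasi-likelihood, TMM, filterByExpr with count minimum 10 and total minimum 15, Benjamini-Hochberg adjustment), checked on simulated data. CPM used TMM-scaled totals of tested genes (for the olfactory and vomeronasal sum, the whole library total) and are not corrected for length. limma 3.58.1 and DESeq2 1.42.0 (R 4.3.3), other scalings and filters, left-out libraries and a covariate were alternatives. Members and lists were chosen with earlier results of these data known. Named were the 8 large and 6 small subunit genes called with the lowest adjusted p, the stalk, Rpl5, Rpl11, Rps6, paralogue pairs, the 3 uncalled members of highest mean CPM, and up to 4 called genes per list by adjusted p; other names were chosen after their values were seen. Fold changes are overloaded over sham on the log2 scale, and SE is the log2 fold change divided by the square root of edgeR's F. Of the called members, 3 are not reported here by name and are left out of the plots by gene; they stay in all counts and medians.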

Additional observations from a re-analysis of the deposited data

How the results depend on the processing

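The count of members called higher was 27 as reported, 9 with the olfactory read covariate, and 15 to 28 when each library was left out in turn. It lay within 1.5 times in the other 9 settings. Members called lower were 0 as reported and 0 to 2 with a library left out. Over all genes, 1084 were called higher and 1027 lower, against 488 and 381 with the covariate. With the replicate number as a block (replicate block), 26 members were called higher, 25 of them among the 27. Libraries of the same number did not deviate together (correlations of 0.00822, 0.0144 and 0.0149), so the numbers are not taken as pairing the samples. The median member log2 fold change stayed above 0 in all 16 alternatives. With each library left out in turn, the log2 fold change turned in direction for 6 of the named genes (over all 77 tested members, 61 were above 0 as reported and 73 without sham library 2). It ran from -0.91 to 0.11 for Rpl10, -0.50 to 0.13 for Rpl22, -0.57 to 0.11 for Rps6 and -0.34 to 0.64 for Rpl36a (the highest value without sham library 2 for all 4). Rpl39 ran from -0.0089 to 0.45 and Rps20 from -0.029 to 0.21 (both lowest without sham library 3). Rps20 was at -0.000112 after thinning to the smallest total. Rpl36a also turned with no filter (0.069), the replicate block (0.090), the covariate (0.17) and limma-voom (0.20). The Rpl7l1 to Rpl7 difference ran from -0.21 without sham library 1 to 0.77 without sham library 2. The cause was not tested. At totals of 500402 to 1124210 counts, 6 of 83 members had too few counts for a test, and the reason was not tested.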
